A study of Mus musculus with 4 samples.

Results

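The fibroblasts described here were barcodes of dissected mouse vessels that carried RNA of Cxcl14, Scara5, Inmt and Penk, and they made up 162 of 3435 barcodes kept in 3 single-cell libraries. A barcode was counted when it held a unique molecular identifier (UMI, 1 captured transcript) for at least 3 of the 5 fibroblast genes Pdgfra, Col1a1, Col1a2, Dcn and Serpinf1. It also had to hold at least 2 of the 4 genes Cxcl14, Scara5, Inmt and Penk, and more of these than of Pi16, Sfrp4, Pcolce2 and Dpp4 and than of Col4a4, Tspan11, Itgbl1 and Nkain4. These 17 genes chose the cells, so their values are given as a description and carry no test. The same rule with the gene sets exchanged gave 296 Pi16 fibroblasts and 150 Col4a4 fibroblasts, which serve for comparison, and all 1163 barcodes with the fibroblast genes served as the wider denominator.

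All libraries came from adult mice that carried the WT1GFPCre allele, a green fluorescent protein and Cre recombinase fusion at the Wt1 locus, together with Ai9-tdT, a Cre-dependent tdTomato reporter. Each of the 2 popliteal lymphatic vessel (PLV) libraries was a separate pool of 2 mice, and the third, mixed library was 1 pool of 2 mice in which popliteal lymphatic vessels and blood vessels were tagged apart and loaded together. Evans blue had been injected into the footpad to show the lymphatic vessels in every group. PLV tissue was digested for 30 minutes with collagenase I, Dispase II, DNAse and Liberase, and the tissue of the mixed library for 60 minutes with collagenase I and Dispase II alone. Vessel, digestion, run and mice therefore differ together between the 2 kinds of library and cannot be told apart, and Cre expressed from the Wt1 locus marks the history of the cells rather than the lymphatic vessel as such.

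Fibroblasts of the vessel wall and of the surrounding connective tissue build the collagen and elastic matrix and release complement proteins, chemokines and growth factors. Cxcl14 encodes a chemokine, Scara5 a scavenger receptor that takes up ferritin, Inmt an enzyme that methylates indole amines, and Penk the precursor of the enkephalin peptides. C3 and C4b are complement components that fibroblasts are known to secrete, and Pi16 marks fibroblasts of the outer, adventitial layer in many mouse tissues. In the GRCm38 annotation Cxcl14 lies at chr13:56288643-56296551 on the minus strand, Scara5 at chr14:65666403-65764826 on the plus strand, Inmt at chr6:55170626-55175043 on the minus strand and Penk at chr4:4133531-4138819 on the minus strand. The complement genes C3, at chr17:57203970-57228136, and C4b, at chr17:34728380-34743882, both lie on the minus strand.

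The RefSeq sequences (build GRCm38.p6) just before the start of 4 genes are shown because these genes carry the results below: Cxcl14 names the cells, C3 was the complement gene with the most UMIs of those that fell in the mixed library, and Col3a1 and Sparc were among the matrix genes that rose. Each is 250 bases long and written 5′ to 3′ on the strand of its gene. They lie at chr13:56296552-56296801 (Cxcl14, minus strand), chr17:57228137-57228386 (C3, minus strand), chr1:45311288-45311537 (Col3a1, plus strand) and chr11:55420081-55420330 (Sparc, minus strand). Capitals mark matches to the 5 motifs searched on both strands.
Cxcl14: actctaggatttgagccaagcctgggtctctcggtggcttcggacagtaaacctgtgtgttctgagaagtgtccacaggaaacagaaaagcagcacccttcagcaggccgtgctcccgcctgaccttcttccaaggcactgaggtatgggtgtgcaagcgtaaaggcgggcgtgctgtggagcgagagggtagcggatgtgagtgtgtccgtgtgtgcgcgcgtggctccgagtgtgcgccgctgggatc
C3: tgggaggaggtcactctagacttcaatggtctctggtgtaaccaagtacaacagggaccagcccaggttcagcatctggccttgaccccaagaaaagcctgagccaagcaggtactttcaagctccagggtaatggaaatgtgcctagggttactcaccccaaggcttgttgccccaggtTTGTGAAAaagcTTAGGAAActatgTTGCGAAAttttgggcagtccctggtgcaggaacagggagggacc
Col3a1: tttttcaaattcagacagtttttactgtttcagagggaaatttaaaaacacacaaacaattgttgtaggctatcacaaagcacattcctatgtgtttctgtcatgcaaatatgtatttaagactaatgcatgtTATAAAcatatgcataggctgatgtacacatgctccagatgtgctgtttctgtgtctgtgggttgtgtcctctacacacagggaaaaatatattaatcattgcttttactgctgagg
Sparc: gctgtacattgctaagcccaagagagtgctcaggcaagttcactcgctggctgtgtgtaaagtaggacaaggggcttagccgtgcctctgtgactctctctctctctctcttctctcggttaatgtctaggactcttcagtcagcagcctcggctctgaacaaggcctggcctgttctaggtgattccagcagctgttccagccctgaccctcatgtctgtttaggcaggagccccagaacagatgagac
The C3 window held 3 matches to TTNNGNAA, the consensus of C/EBP factors, which occurred in 36.8% of 32851 windows of the same length. The Col3a1 window held 1 match to TATAAA, the TATA box, found in 12.4% of windows. The windows of Cxcl14 and Sparc held no match to these or to CCAAT (33.8% of windows), GGGCGG (32.7%) or TGANTCA (6.75%), and no 2 matches overlapped. Of 8 genes looked up, 5 had an entry.

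There were 68 such fibroblasts of 1919 kept barcodes in PLV library 1, a share of 3.54% (Clopper-Pearson 95% interval 2.76 to 4.47). PLV library 2 held 33 of 519, or 6.36% (4.42 to 8.81), and the mixed library 61 of 997, or 6.12% (4.71 to 7.79). The share was lowest in PLV library 1, whose interval ended below the point values of the other libraries. Among barcodes with the fibroblast genes the order was another one, at 13.0% in PLV library 1, 26.8% in PLV library 2 and 11.8% in the mixed library. Thinning each barcode to 1500 UMIs before the rule left 45, 23 and 34 members, or 2.95%, 5.69% and 3.85% of the barcodes deep enough. With 2 libraries against 1 the smallest exact permutation p is 0.333, so no test of the share was made, and the intervals cover counting error only.

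The members summed to 280732 UMIs in PLV library 1, 181228 in PLV library 2 and 523566 in the mixed library, so that 1 UMI was worth 3.56, 5.52 and 1.91 CPM (UMIs scaled to a sum of 1000000 per library). Their median UMI counts were 3835, 4602 and 7721 per cell, their median gene counts 1712, 1689 and 2296, and their median mitochondrial shares 2.46%, 2.26% and 1.68%. The mixed library was thus read most deeply in these cells. No cell barcode was shared between any pair of libraries. Where a gene is at 0, the limit that a count of 0 allows (3 UMIs) is 10.7, 16.6 and 5.73 CPM in the order above. Of the members, 6, 0 and 3 also held markers of another cell type and may be doublets. Sex is not given in the labels. Xist stood at 1079 and 778 CPM in the PLV members and at 0 in the mixed ones, whereas Ddx3y, from the Y chromosome, was at 0, 0 and 87.9 CPM. The mice of the PLV and the mixed libraries therefore differed in the expression of sex-limited genes, which adds sex to what cannot be told apart.

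Markers of other cell types were low or absent. Of 12 immune markers 9 were at 0 in all members, among them Ptprc, Tyrobp and Cd3e, and the 12 summed to 0, 11.0 and 17.2 CPM. Of 8 blood endothelial markers 6 were detected and summed to 121, 66.2 and 103 CPM with Cldn5 and Egfl7 at 0, and 4 of 8 lymphatic endothelial markers summed to 260, 226 and 122 CPM with Prox1, Lyve1, Flt4 and Ccl21a at 0. Pericyte markers, 6 of 8 detected, summed to 267, 165.5 and 200.5 CPM with Rgs4 and Higd1b at 0, and 7 of 8 Schwann markers were detected, at 192, 77.3 and 49.7 CPM in sum, with Sox10 at 0. Adipocyte markers summed to 7.12, 5.52 and 1.91 CPM with Adipoq, Plin1, Cidec, Lep and Adrb3 at 0, and tendon or synovial markers to 53.4, 66.2 and 86.0 CPM with Scx, Mkx, Fmod, Chad and Hapln1 at 0. Muscle markers, 7 of 8 detected, summed to 203, 71.7 and 78.3 CPM, with Actg2 at 0, and keratinocyte markers, 1 of 8 detected, to 28.5, 16.6 and 13.4 CPM. Haemoglobin and other erythroid genes summed to 459.5, 138 and 109 CPM. In the near-empty droplets of the mixed library (185412 barcodes of at most 50 UMIs) Hbb-bs alone stood at 31655 CPM, against 53.5 CPM in its members. Of these markers Plvap (46.3, 66.2 and 103 CPM), Ndufa4l2 (67.7, 49.7 and 103 CPM) and Tnmd (3.56, 22.1 and 78.3 CPM) were higher and Hbb-bs (242, 77.25 and 53.5 CPM) lower in the mixed members in the test between libraries described below. For Hbb-bs, PLV library 2 lay nearer to the mixed library than to PLV library 1, so that its fall rested mostly on PLV library 1. Tnmd also differed between the PLV libraries but was highest in the mixed one.

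Of the 4 genes that chose the cells, Cxcl14, Inmt and Penk stood above both other kinds of fibroblast in each library, while Scara5 was nearly as high in the Pi16 fibroblasts of the PLV libraries. Cxcl14 stood at 638 and 1424 CPM in PLV libraries 1 and 2 and 1255 CPM in the mixed library. In the Pi16 fibroblasts the same gene was at 21.0, 0 and 450.2 CPM and in the Col4a4 fibroblasts at 0, 0 and 66.3 CPM. Its level was thus lowest in PLV library 1 among the members, and the Pi16 fibroblasts of the mixed library held far more of it than those of the PLV libraries. Scara5 was at 427.5, 408 and 307.5 CPM in the members of PLV library 1, PLV library 2 and the mixed library, against 365, 339 and 159 CPM in the Pi16 fibroblasts. Inmt ran at 1346, 1048 and 304 CPM against 71.4, 188 and 19.6 CPM and Penk at 338, 303.5 and 174 CPM against 65.1, 25.1 and 8.39 CPM, with the members higher in each library.

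The complement genes, which the rule did not use but which were read in the same cells, split these comparisons. C4b was at 1211, 1578 and 605.5 CPM in the members, 229.6, 319.9 and 89.5 CPM in the Pi16 fibroblasts and 51.3, 0 and 17.1 CPM in the Col4a4 fibroblasts. C3 was at 3359, 5286 and 1219 CPM in the members and 3009, 3645 and 833 CPM in the Pi16 fibroblasts, less than 2-fold apart in each library, and at 394, 489 and 28.1 CPM in the Col4a4 fibroblasts. C4b therefore set the members apart from both other kinds, and C3 from the Col4a4 fibroblasts. A UMI of C3 was found in 82.4%, 72.7% and 86.9% of members, and in 1.55%, 1.80% and 1.40% of endothelial-gated cells, whose median depths of 3935, 6031 and 7443 UMIs were near those of the members.

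**Figure D1:**
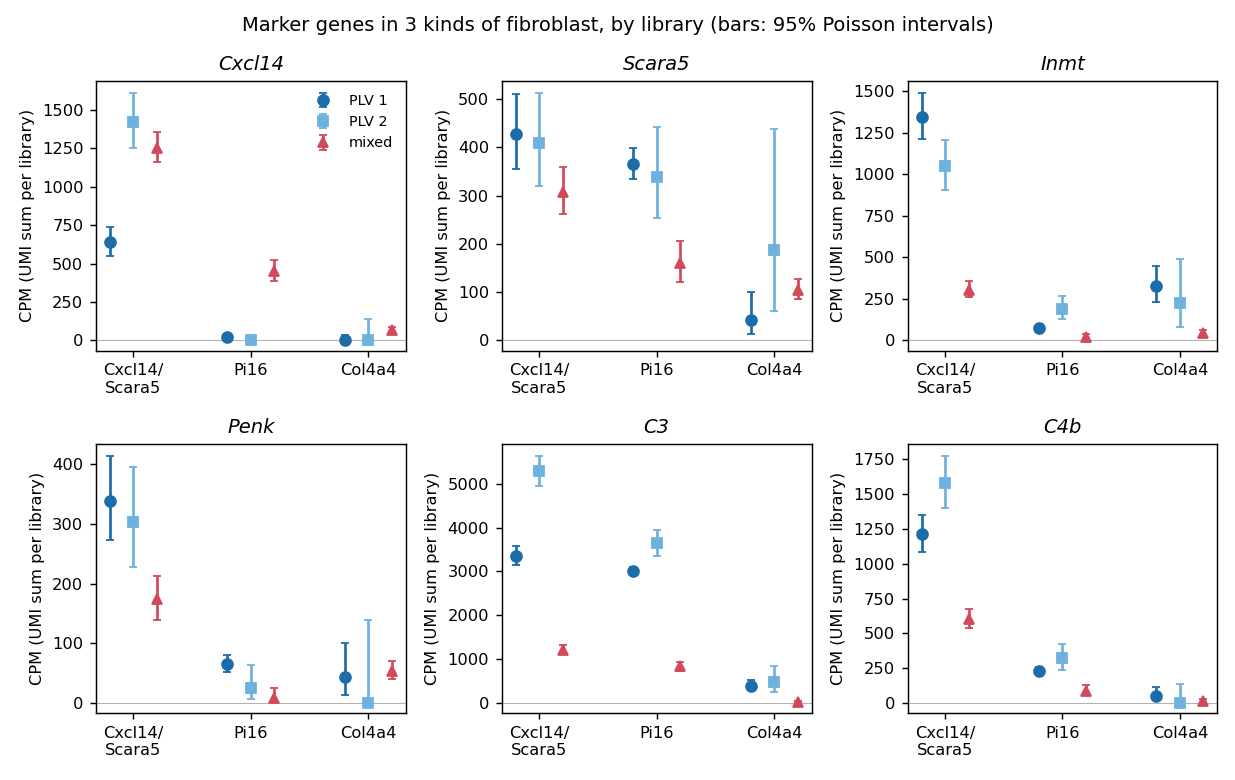
CPM of Cxcl14, Scara5, Inmt, Penk, C3 and C4b (vertical axis of each panel) in Cxcl14 and Scara5, Pi16 and Col4a4 fibroblasts, 1 point per library with its exact 95% Poisson interval. C4b is highest in the members in each library, Scara5 is nearly as high in the Pi16 fibroblasts of the PLV libraries, and C3 lies lowest in the mixed library in each kind.

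The 4 defining genes were not held by every cell. All 4 were found in 44 members (27.2%), exactly 3 in 60 (37.0%) and exactly 2 in 58 (35.8%). The combination without Cxcl14, that is Scara5, Inmt and Penk, was held by 23 members, the combination without Penk by 22, and Scara5 with Inmt alone by 21. The members just inside the rule, with 2 of the genes, had median UMI counts of 3067, 2821 and 4121, below those of all members. Just outside it lay 40 cells with 1 of the genes and none of the other sets, with median UMI counts of 2075, 2560 and 1944.5, and 53 cells that tied with another set. Only 21 members (13.0%) held no UMI of either other set.

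Against the Pi16 fibroblasts of the same library, the members held more RNA of genes such as Apoe, Apod, Col4a1 and Igfbp3, and less of genes such as Anxa3 and Smpd3. With 20 CPM added to both, 39 of 10253 genes (0.38%) were at least 2-fold higher in each of the 3 libraries and 69 (0.673%) at least 2-fold lower. Both counts describe cells chosen on this contrast and have no test. After thinning each barcode to 1500 UMIs, 7 of the 39 and 13 of the 69 still met the bound. Apoe, the lipid-carrying apolipoprotein E, was at 2832, 3145 and 2760 CPM in the members and 389, 408 and 453 CPM in the Pi16 fibroblasts. Apod, another lipid carrier of the lipocalin family, was at 6800, 5176 and 985.5 CPM against 682.5, 765 and 316 CPM. The members were higher in every library for both, and their Apod in the mixed library was well below that of the PLV libraries. Col4a1, a chain of basement membrane collagen, was at 805, 966 and 840.4 CPM against 184, 263.5 and 215 CPM, and its partner Col4a2 at 345.5, 425 and 493 CPM against 85.4, 125.5 and 157 CPM. Igfbp3, which binds insulin-like growth factors, was at 812, 2047 and 157 CPM against 217, 470.5 and 11.2 CPM. Its level in the mixed library was the lowest in both kinds.

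The other genes of the 10 with the most even difference were Sned1 and Cp, which encode a matrix protein and the copper-carrying ferroxidase ceruloplasmin, the receptor gene Nrp1, the chemokine gene Ccl19 and C4b. Cp was at 292, 270.4 and 160.4 CPM in the members and 81.2, 12.55 and 41.95 CPM in the Pi16 fibroblasts. Nrp1 was at 431, 546 and 290.3 CPM against 112, 94.1 and 75.5 CPM, Sned1 at 549, 585 and 323 CPM against 109, 119 and 47.5 CPM, and Ccl19 at 249, 182 and 179.5 CPM against 68.6, 50.2 and 36.35 CPM. All 4 lay above the Pi16 fibroblasts in each library. Without the possible doublets, 9 of these 10 genes were still at least 2-fold higher in each library, and Apod was not, at 991 CPM in the mixed members and 501 CPM in the mixed Pi16 fibroblasts before 20 CPM were added.

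Among the 10 genes lowest against the Pi16 fibroblasts were Acta2, Myh11, Mylk, Myl9, Tpm2, Tagln and Actg2, which encode the contractile apparatus of smooth muscle. Acta2 was at 53.4, 5.52 and 3.82 CPM in the members and 890.4, 3513 and 4346 CPM in the Pi16 fibroblasts. Of the Pi16 fibroblasts 21, 7 and 16 also carried a full gate of another cell type, and muscle markers summed to 1943, 8061 and 10803 CPM in them. Without the possible doublets of both kinds, 2 of the 10 genes were still 2-fold lower in each library, Anxa3 and Smpd3. Acta2 was then at 7.64, 5.52 and 4.07 CPM in the members and 5.80, 0 and 14.75 CPM in the Pi16 fibroblasts, and none of the 7 contractile genes held. Anxa3, a calcium-dependent membrane-binding annexin, was at 42.75, 11.0 and 13.4 CPM against 481, 282 and 257 CPM with all cells. Smpd3, a neutral sphingomyelinase, was at 3.56, 33.1 and 11.5 CPM against 1235, 959.8 and 139.8 CPM.

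In a list drawn up after these values were seen, which leaves out the possible doublets, the lowest genes after Anxa3 and Smpd3 were Myoc, Creb5 and Fndc1. Myoc, the secreted protein myocilin, was then at 233, 149 and 48.8 CPM in the members and 1739, 1264 and 270 CPM in the Pi16 fibroblasts. Fbn1, the fibrillin of elastic microfibrils, was at 516, 552 and 456 CPM against 2419, 2462 and 1396 CPM. The member levels were even across libraries for Fbn1 and lowest in the mixed library for Myoc. That count gave 27 genes higher and 39 lower.

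The Col4a4 fibroblasts held less RNA of C3, C4b, Gpx3 and Lpl than the members, and more of Sfrp5, Klf5, Nr2f2 and Sema3d. At the same 2-fold bound, 57 of 10253 genes (0.556%) were higher in the members in each library and 50 (0.488%) lower. These counts, too, have no test, and the Col4a4 set held only 5 cells and 26602 UMIs in PLV library 2. After thinning, 23 of the 57 and 3 of the 50 still met the bound. The thinned Col4a4 set of PLV library 2 was 1 cell of 1500 UMIs. A gene could then be lower in the members only if that cell held a UMI of it, so thinning cannot show how many of the 50 hold. Gpx3, a secreted glutathione peroxidase, was at 691, 728 and 710.5 CPM in the members and 94.1, 0 and 18.1 CPM in the Col4a4 fibroblasts. Lpl, lipoprotein lipase, was at 1304, 1385 and 1488 CPM against 291, 301 and 236 CPM. Both genes were even across the libraries in the members. Fst, the activin-binding follistatin, was at 306, 529.7 and 325 CPM against 8.56, 75.2 and 39.2 CPM, and Trf, transferrin, at 78.4, 138 and 72.6 CPM against 0 in every library of the Col4a4 fibroblasts. Plac8, Nmb, Ifi204 and Gadd45g made up the 10 with C3 and C4b.

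On the other side Sfrp5, a secreted Wnt antagonist, was at 0 in all members and at 1711, 1241 and 42.2 CPM in the Col4a4 fibroblasts. Klf5, a zinc finger transcription factor, was at 64.1, 105 and 30.6 CPM against 1053, 1165 and 156 CPM and Nr2f2, an orphan nuclear receptor, at 231.5, 259 and 57.3 CPM against 2482, 2143 and 308 CPM. Sema3d, a secreted semaphorin, was at 39.2, 77.25 and 13.4 CPM against 428, 977 and 106.5 CPM. All 4 were lower in the members of every library. The rest of the 10 were Ccdc3, Fxyd6, Phlda3, Wfdc1, Srgn and Cgnl1. Beside these values, perineurial or endoneurial markers summed to 3791, 2255 and 178 CPM in the Col4a4 fibroblasts and to 189, 177 and 70.7 CPM in the members, and the part of such cells in the differences was not tested. All 20 genes were still 2-fold apart in each library without the possible doublets.

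**Figure D2:**
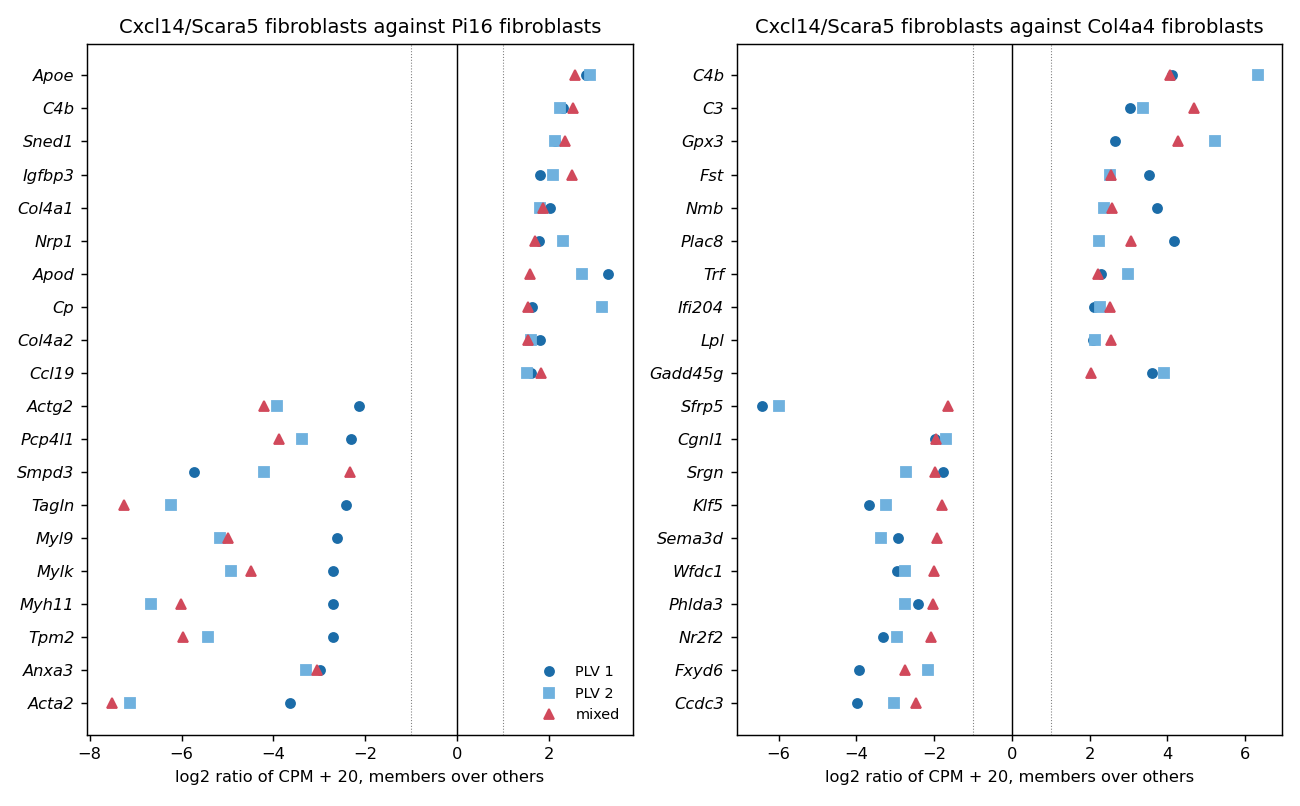
The horizontal axis is the log2 ratio of CPM (20 added to both) of members over Pi16 fibroblasts (left) and over Col4a4 fibroblasts (right), for the 10 genes highest and the 10 lowest in each comparison, 1 point per library. All points of a gene lie beyond the dotted 2-fold lines, and Anxa3 and Smpd3 are the 2 genes at the lower left that did so without possible doublets too.

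Between the mixed and the PLV libraries, the members held more RNA of Col3a1, Sparc, Sfrp2 and C7 in the mixed library, and less of C3, Kitl, Apod and Lifr. With edgeR's quasi-likelihood test on UMI sums of 2 PLV libraries against 1 mixed library, 514 of 5179 genes tested (9.92%) passed at a Benjamini-Hochberg adjusted p below 0.05, 346 of them higher in the mixed library (6.68%) and 168 lower (3.24%). The lone mixed library is assumed to vary like the PLV libraries, since 1 residual degree of freedom is left. Scaling sets the split: with TMM the median of all genes tested was -0.05 on the log2 scale, and with library totals -0.515 with 82 genes higher and 352 lower. All of these 82 and all 168 genes above were called under both scalings, and no called gene turned its sign. DESeq2 called 41 higher and 9 lower, all among the 514. Below, "under both scalings" refers to TMM and library totals, and a difference is mixed minus PLV. The shares of 6.68% and 3.24% hold for TMM scaling. Counts of a list with library totals are to be read beside the 82 and 352 of 5179 genes, and their medians beside -0.515. Of 86 genes chosen by the naming rule for this test, DESeq2 called 27 and gave no adjusted p for 49, among them Sfrp2, Timp1, Col14a1, Nr1d1 and Fgf10. The 10 it did not call were Igfbp3 (adjusted p = 0.144), Ccn1 (0.528), B2m, Ccl11, Eln, Gpc3, Igf1, Ly6c1, Mgp and Nr4a1. After thinning each barcode to 1500 UMIs, 46 of the 86 could be tested, and edgeR no longer called 14. The log2 difference had shrunk for Vegfa (-0.678, edgeR adjusted p = 0.492), Col14a1 (0.933, adjusted p = 0.674), Ccn1 (-1.14, adjusted p = 0.208), Eln (0.57), Ly6a (0.58), Mgp (0.66) and Ftl1 (1.02). It was near its value with all UMIs for B2m (-0.98), Fth1 (1.07), Igfbp7 (0.94), Nr2f2 (-1.55) and Timp2 (0.99), and larger for Fbln5 (-1.98) and Per1 (-2.49). For those of the 86 genes named below, PLV libraries 1 and 2 were also taken singly. Where they gave differences over 1.5 times apart, both log2 ratios of the mixed library to them are given (TMM-scaled CPM, 5 added, no test).

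**Figure D3:**
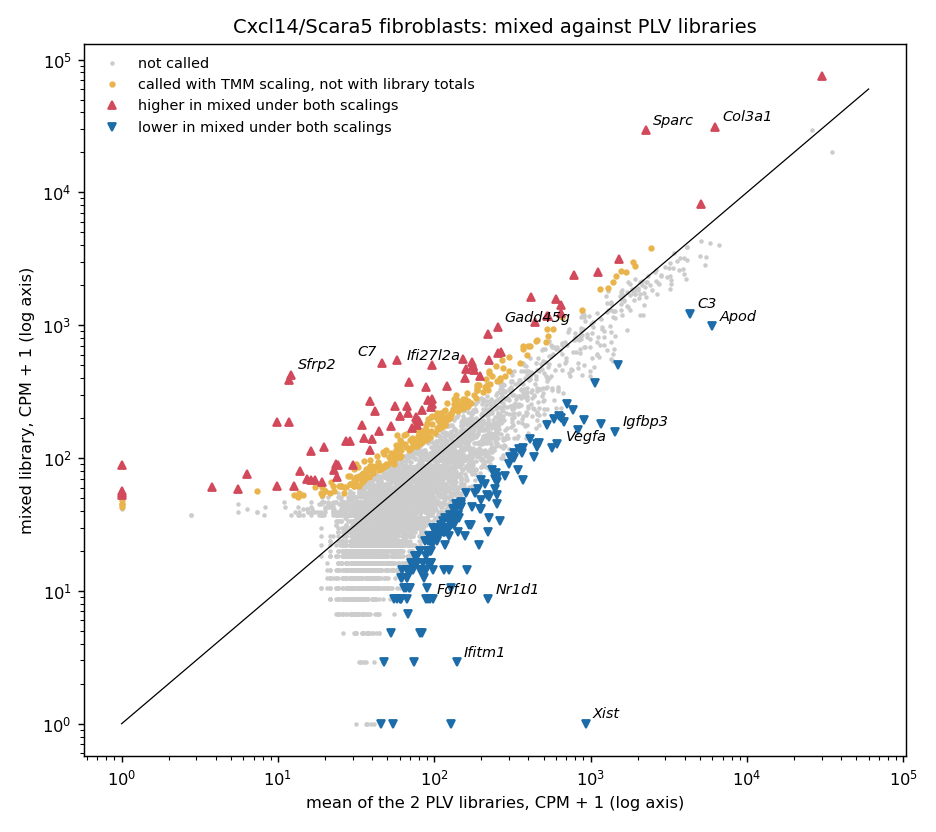
Each point is a gene in the members, with the mean of the 2 PLV libraries on the horizontal axis and the mixed library on the vertical axis, both in CPM plus 1 on log axes. Red and blue triangles were called under both scalings, yellow points with TMM scaling only and all of them higher; Sparc and Col3a1 stand at the top, Xist at the bottom.

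Most collagens that passed were higher in the mixed library. Of 16 collagen genes tested, 5 were higher and 1 lower, beside 6.68% and 3.24% of all genes tested. Their median log2 difference was 0.68 (with library totals 4 higher, 1 lower and a median of 0.22). The collagen list, which leaves out Col1a1 and Col1a2, summed to 13696, 11737 and 39678 CPM in the members. In the Pi16 fibroblasts it summed to 17174, 11549 and 28480 CPM and in the Col4a4 fibroblasts to 5408, 4173 and 29508 CPM. The sum was thus highest in the mixed library in each kind of fibroblast, not in the members alone. Col3a1, a fibrillar collagen of vessels and skin, was at 7206 and 5319 CPM in PLV libraries 1 and 2 and 31329 CPM in the mixed library, above both PLV libraries (log2 difference 2.76 ± 0.35 (SE), edgeR adjusted p = 1.2e-12). Col14a1, which binds to collagen fibrils, was at 71.2, 38.6 and 244.5 CPM (log2 difference 2.54 ± 0.38 (SE), edgeR adjusted p = 9.9e-09). Col5a1 and Col5a2, chains of the collagen that nucleates fibrils, stood at 573.5, 497 and 1180 CPM and at 598, 695 and 1415 CPM (edgeR adjusted p = 0.00018 and 0.00023). These 4 were called under both scalings. Col6a6 was at 0 in both PLV libraries and at 43.9 CPM in the mixed library, at least 6.76-fold higher against a floor of 3 UMIs over the PLV group, with TMM scaling only. Col18a1, a basement membrane collagen, fell, at 157, 38.6 and 28.65 CPM (log2 difference -1.39 ± 0.48 (SE), edgeR adjusted p = 0.04), and lay lowest in the mixed library but close to PLV library 2. Col18a1 gave -1.76 and -0.06 against PLV libraries 1 and 2 singly, so that its fall rested on PLV library 1, and Col14a1 gave 2.24 and 2.87. Col1a1 and Col1a2 belong to the rule and have no call. They were at 4684, 3570 and 36717 CPM and at 6031, 4458 and 35831 CPM, and together with Col3a1 and Sparc they took 2.06%, 1.52% and 13.3% of the members' UMIs.

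Sparc, a secreted protein that binds collagen, rose most among the matrix glycoproteins with levels above 100 CPM. It was at 2675 and 1854 CPM in PLV libraries 1 and 2 and 29408 CPM in the mixed library (log2 difference 4.14 ± 0.36 (SE), edgeR adjusted p = 3.9e-27). The Pi16 and Col4a4 fibroblasts showed the same order, at 2896, 1926 and 27577 CPM and at 1660, 714 and 35758 CPM, and the near-empty droplets of the mixed library stood at 4009 CPM. Of 39 matrix glycoprotein genes tested 6 were higher and 3 lower with TMM scaling, beside 6.68% and 3.24% of all genes tested. Their median was 0.12, whereas with library totals 4 were higher and 6 lower, with a median of -0.35. Aspn and Lox, which encode the collagen-binding asporin and the cross-linking enzyme lysyl oxidase, were higher, at 39.2, 27.6 and 176 CPM and at 92.6, 38.6 and 244.5 CPM (edgeR adjusted p = 9.5e-09 and 3e-07). Mfap4, a microfibril protein, had 3 UMIs in the PLV members and 39 in the mixed ones (ratio 11.5 with an exact counting interval of 3.65 to 58.0). Eln and Mgp were higher with TMM scaling only. The 3 that fell were Sparcl1, a relative of Sparc, at 787, 1032 and 193 CPM (edgeR adjusted p = 0.00015), Fbln5, an elastic fibre protein, at 174.5, 188 and 53.5 CPM (edgeR adjusted p = 0.021), and Hmcn2, with 32 UMIs in PLV and 1 in the mixed members (ratio 36.3 with an exact counting interval of 6.06 to 1477). Lox gave 1.89 and 2.87 against PLV libraries 1 and 2 singly, Mfap4 gave 2.80 and 4.28, Eln gave 0.66 and 2.24 and Hmcn2 gave -2.76 and -3.69. Sparc and Sparcl1 thus moved in opposite directions.

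Matrix-processing genes that passed were mostly higher in the mixed library. Of 24 proteases and inhibitors tested 8 were higher and 1 lower, beside 6.68% and 3.24% of all genes tested. The median was 0.24 (with library totals 6 higher, 3 lower and a median of -0.22). Ctsk, the collagen-degrading protease cathepsin K, was at 495 and 381 CPM in PLV libraries 1 and 2 and 1064 CPM in the mixed library (log2 difference 1.71 ± 0.34 (SE), edgeR adjusted p = 3.3e-05), and Cst3, an inhibitor of such proteases, at 1496, 1539 and 3153 CPM (log2 difference 1.48 ± 0.34 (SE), edgeR adjusted p = 0.00062). Adamts2, which trims procollagen, was at 210.2, 149 and 460.3 CPM (edgeR adjusted p = 2.6e-05). Each of these lay above both PLV libraries. Timp1 and Timp3, both inhibitors of metalloproteinases, went opposite ways: Timp1 was at 49.9, 5.52 and 134 CPM (log2 difference 2.53 ± 0.44 (SE), edgeR adjusted p = 1.5e-06) and Timp3 at 962, 706 and 160.4 CPM (log2 difference -1.94 ± 0.39 (SE), edgeR adjusted p = 4.5e-05). Timp1 gave 1.86 and 4.05 against PLV libraries 1 and 2 singly. Serpina3n and Mmp23 were the other genes called under both scalings, and Pcolce and Timp2 passed with TMM scaling only.

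Complement genes that passed were lower in the mixed library, with 1 exception. Of 12 tested 1 rose and 4 fell, beside 6.68% and 3.24% of all genes tested. The median was -0.55 (with library totals 1 higher, 5 lower and a median of -0.998). Over all 5179 genes tested, library totals gave 82 higher, 352 lower and a median of -0.515. C3 was at 3359 and 5286 CPM in PLV libraries 1 and 2 and 1219 CPM in the mixed library, with exact Poisson intervals of 3148 to 3580, 4957 to 5632 and 1126 to 1317 CPM (log2 difference -1.42 ± 0.38 (SE), edgeR adjusted p = 0.0049). C1s1, a protease of the first complement component, was at 1517, 1462 and 500.4 CPM (log2 difference -1.14 ± 0.37 (SE), edgeR adjusted p = 0.027). Vtn, which restrains the terminal complex, was at 96.2, 188 and 34.4 CPM and Cd55, which restrains the convertases, at 74.8, 77.25 and 17.2 CPM (edgeR adjusted p = 0.011 and 0.032). All 4 lay below both PLV libraries. C7, a part of the membrane attack complex, went the other way, at 24.9, 66.2 and 519.5 CPM (log2 difference 4.04 ± 0.40 (SE), edgeR adjusted p = 2.1e-20). C3 gave -0.90 and -1.75 against PLV libraries 1 and 2 singly, Vtn gave -0.85 and -1.96 and C7 gave 4.64 and 3.24. C4b at 1211, 1578 and 605.5 CPM and Serping1, the inhibitor of the first component, at 2561, 2036 and 2128 CPM did not pass (edgeR adjusted p = 0.17 and 0.66). Of the 21 genes of this list Cfi and C6 were at 0 in the members. The list summed to 10761, 12575 and 6477 CPM in the members. In the Pi16 fibroblasts it summed to 6684, 7528 and 3753 CPM and in the Col4a4 fibroblasts to 5151, 5864 and 4378 CPM. This sum was thus lowest in the mixed library in each kind of fibroblast.

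Chemokine and cytokine genes that passed were lower in the mixed library, again with 1 exception. Of 14 tested, 3 fell and 1 rose, beside 3.24% lower and 6.68% higher of all genes tested. The median was -0.10 (with library totals 4 lower, 1 higher and a median of -0.56). Kitl, the ligand of the Kit receptor, was at 588 and 546 CPM in PLV libraries 1 and 2 and 118 CPM in the mixed library (log2 difference -1.82 ± 0.39 (SE), edgeR adjusted p = 0.00016), and the eosinophil attractant Ccl11 at 619.8, 734 and 185 CPM (log2 difference -1.44 ± 0.38 (SE), edgeR adjusted p = 0.0038). Ackr3, a scavenging receptor for Cxcl12, was at 164, 55.2 and 28.65 CPM (log2 difference -1.54 ± 0.47 (SE), edgeR adjusted p = 0.018), and its level in PLV library 2 was nearer to the mixed library than to PLV library 1. Ccl7 rose, at 17.8, 5.52 and 61.1 CPM (log2 difference 2.66 ± 0.65 (SE), edgeR adjusted p = 0.0016), but it stood at 53.0 CPM in the near-empty droplets as well, and the part of free RNA in it was not tested. Ackr3 gave -1.82 and -0.52 against PLV libraries 1 and 2 singly, and Ccl7 gave 2.01 and 2.97. Cxcl12, at 1407, 1424 and 665 CPM, Cxcl1, Ccl19 and Csf1 did not pass (edgeR adjusted p = 0.27 for Cxcl12). Cxcl14, a gene of the rule, is given above without a call.

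Among 18 growth factor genes tested 2 fell and 1 rose, with a median of -0.27 (with library totals 2 lower, 0 higher and a median of -0.75), beside 9.92% of all genes tested. Vegfa, which acts on endothelial cells, was at 595 and 623.5 CPM in PLV libraries 1 and 2 and 126 CPM in the mixed library (log2 difference -1.84 ± 0.39 (SE), edgeR adjusted p = 0.00013), and Fgf10, a ligand for epithelium and adipocyte precursors, at 74.8, 110.4 and 7.64 CPM (log2 difference -3.08 ± 0.64 (SE), edgeR adjusted p = 0.0001). Both were lower in the mixed library than in either PLV library. Igf1 was higher, at 456, 441 and 762 CPM, with TMM scaling only (edgeR adjusted p = 0.0092). Of 6 genes for binding and sensing insulin-like growth factors, Igfbp3, at 812, 2047 and 157 CPM (log2 difference -2.79 ± 0.41 (SE), edgeR adjusted p = 2.6e-09), and the receptor Igf1r, at 217, 165.5 and 21.0 CPM (log2 difference -2.74 ± 0.47 (SE), edgeR adjusted p = 1.2e-06), fell, and Igfbp7, at 1361, 1545 and 2336 CPM, was higher with TMM scaling only (with library totals 0 higher and 3 lower). The median of these 6 genes was -0.29, and -0.77 with library totals. Of all genes tested, 6.68% were called higher and 3.24% lower with TMM scaling. Igfbp3 gave -1.79 and -3.31 against PLV libraries 1 and 2 singly, and Fgf10 gave -2.23 and -2.94. Gas6, Gdf10, Tgfb2 and Fgf7 did not pass.

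Of 8 secreted modulators of Wnt signalling tested, 3 were higher in the mixed library and none lower with TMM scaling, with a median of 0.40. The shares of all genes tested were 6.68% higher and 3.24% lower with this scaling. With library totals 2 were higher and 1 lower, with a median of -0.06. Sfrp2, a secreted frizzled-related protein, was at 0 and 22.1 CPM in PLV libraries 1 and 2 and 424 CPM in the mixed library, that is 0 and 4 UMIs against 222 (log2 difference 5.96 ± 0.51 (SE), edgeR adjusted p = 4.6e-28). Ccn5, a matricellular protein, was at 35.6, 11.0 and 87.9 CPM (log2 difference 2.22 ± 0.50 (SE), edgeR adjusted p = 0.00045). Sfrp1, at 39.2, 116 and 162 CPM, passed with TMM scaling only. Sfrp2 gave 6.73 and 4.33 against PLV libraries 1 and 2 singly, Ccn5 gave 1.70 and 2.86 and Sfrp1 gave 2.44 and 0.82.

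**Figure D4:**
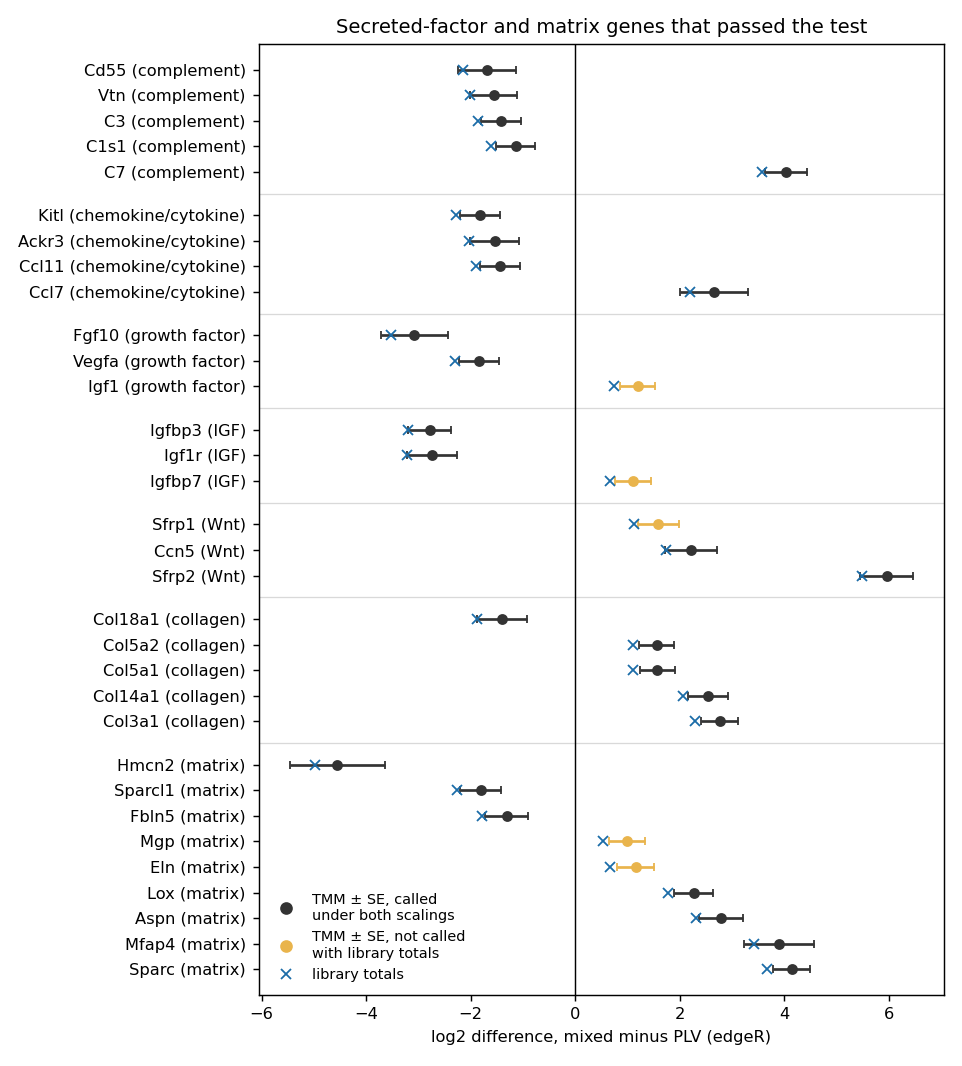
Points are edgeR log2 differences, mixed minus PLV, with their SE (horizontal axis) for genes of 7 lists of secreted and matrix proteins that passed the test in the members, leaving out Col6a6, which had no UMI in the PLV libraries; crosses show the estimate with library totals. Sfrp2, Sparc and C7 lie farthest to the right and Hmcn2 and Fgf10 farthest to the left, and yellow points were not called with library totals.

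Among the genes of lipid handling Apod fell. Of 15 tested none rose and 3 were called lower, beside 3.24% of all genes tested, with a median of -0.61. With library totals 5 were lower, with a median of -1.09, beside 352 lower of all 5179 genes and a median of -0.515. Apod was at 6800 and 5176 CPM in PLV libraries 1 and 2 and 985.5 CPM in the mixed library (log2 difference -2.16 ± 0.40 (SE), edgeR adjusted p = 4.8e-06). Cd36, a fatty acid transporter, and Fabp4, a fatty acid binding protein, were called lower as well, but at 160.3, 11.0 and 22.9 CPM and 271, 11.0 and 26.7 CPM their PLV values rested on library 1. Without PLV library 1 their log2 differences were 1.09 and 1.29, and without possible doublets that of Fabp4 was 0.258, so that the direction of both rested on PLV library 1. Apoe, at 2832, 3145 and 2760 CPM, and Lpl, at 1304, 1385 and 1488 CPM, did not pass (edgeR adjusted p = 0.69 and 0.34), nor did the transcription factors Ebf1 and Cebpd.

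In the list of metabolism and detoxification 5 of 28 genes tested were higher and 1 lower with TMM scaling, beside 6.68% and 3.24% of all genes tested. The median was 0.04, and 4 were higher and 4 lower with library totals, with a median of -0.42. The ferritin chains Ftl1 and Fth1, which store iron, were at 1051, 1175 and 2512 CPM (log2 difference 1.60 ± 0.34 (SE), edgeR adjusted p = 0.00014) and at 5258, 4867 and 8201 CPM (log2 difference 1.13 ± 0.34 (SE), edgeR adjusted p = 0.018). Both rose above both PLV libraries, under both scalings. Rbp4, which carries retinol, was at 24.9, 5.52 and 113 CPM (log2 difference 3.15 ± 0.51 (SE), edgeR adjusted p = 1.4e-07), and Adh1, which oxidises retinol, fell, at 167, 110.4 and 43.9 CPM (log2 difference -1.24 ± 0.43 (SE), edgeR adjusted p = 0.042). Rbp4 gave 2.48 and 3.81 against PLV libraries 1 and 2 singly. Hp, the haemoglobin-binding haptoglobin, was at 0 in both PLV libraries and at 53.5 CPM in the mixed one, at least 8.24-fold higher, beside 66.0 CPM in near-empty droplets, so that free RNA in it was not told apart. Gsn, the actin-severing gelsolin, was at 36294, 33461 and 20043 CPM and did not pass (edgeR adjusted p = 0.64).

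Of 33 surface receptors tested 4 were higher and 4 lower with TMM scaling, beside 6.68% and 3.24% of all genes tested. The median was -0.12, but 1 was higher and 8 lower with library totals, with a median of -0.59. That scaling gave 82 higher, 352 lower and a median of -0.515 over all 5179 genes tested. Lifr and Osmr, receptor chains for cytokines of the interleukin 6 family, fell, at 78.4, 116 and 7.64 CPM (log2 difference -3.15 ± 0.64 (SE), edgeR adjusted p = 5.7e-05) and at 121, 66.2 and 15.3 CPM (log2 difference -2.19 ± 0.55 (SE), edgeR adjusted p = 0.0028). Gpc3, a heparan sulphate proteoglycan of the cell surface, was at 983, 557 and 229 CPM (log2 difference -1.30 ± 0.37 (SE), edgeR adjusted p = 0.0097). Egfr, the receptor for epidermal growth factor, rose, at 321, 209.7 and 630.3 CPM (log2 difference 1.68 ± 0.34 (SE), edgeR adjusted p = 5.8e-05). Lifr gave -2.29 and -3.01 against PLV libraries 1 and 2 singly, Osmr gave -2.16 and -1.52 and Gpc3 gave -1.53 and -0.91. Cd55 was the other gene that fell, and Npr1, Ly6a and Ly6c1 were higher with TMM scaling only (Ly6c1 gave 0.83 and 1.45).

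Of 30 transcription factor genes tested 3 fell and 1, Prrx2, was higher with TMM scaling only, which is near the 9.92% of all genes called. The median was -0.42, and library totals gave 0 higher, 7 lower and a median of -0.88. All 5179 genes tested gave 82 higher, 352 lower and a median of -0.515 with library totals. Nr1d1, a repressor of the circadian clock, was at 271 and 171 CPM in PLV libraries 1 and 2 and 7.64 CPM in the mixed library (log2 difference -4.37 ± 0.57 (SE), edgeR adjusted p = 4.9e-12), and Per1, another clock gene, at 164, 88.3 and 30.6 CPM (log2 difference -1.63 ± 0.46 (SE), edgeR adjusted p = 0.0088). Outside the lists and named after its value was seen, Dbp, a clock output gene, had 43 UMIs in the PLV and 2 in the mixed members (ratio 24.4 with an exact counting interval of 6.35 to 208). Per1 gave -1.74 and -1.07 against PLV libraries 1 and 2 singly. Nr2f2 was at 231.5, 259 and 57.3 CPM (log2 difference -1.65 ± 0.41 (SE), edgeR adjusted p = 0.0019). Klf4, at 1706, 1418 and 1305 CPM, Klf9, Nfib and Prrx1 did not pass. Lmx1b, Tcf21, Hoxb6 and Wt1 were at 0 in all members.

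Immediate-early and stress genes, which tissue digestion is known to induce, moved both ways. Of 36 tested 6 were higher and 3 lower with TMM scaling, beside 6.68% and 3.24% of all genes tested. The median was 0.15, and 5 were higher and 6 lower with library totals, with a median of -0.31. The heat-shock co-chaperone Dnajb1 was at 32.1, 49.7 and 223.5 CPM (log2 difference 2.93 ± 0.41 (SE), edgeR adjusted p = 2e-10), and the growth-arrest gene Gadd45g at 224, 281 and 963 CPM (log2 difference 2.37 ± 0.34 (SE), edgeR adjusted p = 1.4e-09). Hspa1a, Hspa1b and Atf3 were also higher, at 168, 252 and 493 CPM in the mixed members, beside 237, 237 and 621 CPM in near-empty droplets. Ccn1, a matricellular early gene, fell, at 606, 132 and 66.85 CPM (log2 difference -2.03 ± 0.41 (SE), edgeR adjusted p = 5e-05), with PLV library 2 nearer to the mixed library than to PLV library 1. Nr4a1 was at 569.9, 298 and 101 CPM (log2 difference -1.66 ± 0.39 (SE), edgeR adjusted p = 0.00092), and Fosl2 fell as well. Ccn1 gave -2.55 and -0.59 against PLV libraries 1 and 2 singly, Dnajb1 gave 3.14 and 2.41 and Nr4a1 gave -1.89 and -1.16. Fos, at 3209, 3565 and 2705 CPM, Egr1, at 3555, 2974 and 2040 CPM, Jun and Junb did not pass (edgeR adjusted p = 0.92 and 0.77 for Fos and Egr1). The digestion differed between the groups and cannot be told apart from the vessel here.

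Of 13 genes of antigen presentation and interferon response 3 fell and 1 rose, beside 3.24% lower and 6.68% higher of all genes tested. The median was -0.43 (the same counts with library totals, with a median of -0.91). Ifi27l2a, an interferon-induced gene, was at 64.1, 49.7 and 546 CPM (log2 difference 3.67 ± 0.39 (SE), edgeR adjusted p = 1.7e-18) and rose far above both PLV libraries. Ifitm1, a membrane protein that restricts viral entry, had 64 UMIs in the PLV and 1 in the mixed members (ratio 72.5 with an exact counting interval of 12.6 to 2909). B2m, the light chain of MHC class I, was at 879.8, 1242 and 369 CPM (log2 difference -1.10 ± 0.37 (SE), edgeR adjusted p = 0.033), and Gbp2 at 49.9, 93.8 and 13.4 CPM (edgeR adjusted p = 0.022). Gbp2 gave -1.12 and -2.14 against PLV libraries 1 and 2 singly, and B2m gave -0.69 and -1.38. Only 6 of 12 cell cycle genes were detected in the members, and the 1 that could be tested did not pass.

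The genes with the largest fitted differences were those with no UMI in 1 group, for which a bound against 3 UMIs over the group is given in place of the fit. Besides Ddx3y (at least 13.5-fold higher in the mixed library), Eif2s3y, also on the Y chromosome, Hp and Col6a6, they included Ecrg4, a secreted peptide precursor, Cgref1, Cthrc1, a secreted collagen triple helix protein, and Rbfox3, a splicing factor best known from neurons. Ecrg4 was at least 8.53-fold higher, Cgref1 7.94-fold, Cthrc1 6.76-fold and Rbfox3 6.47-fold. Eif2s3y, Col6a6, Cthrc1 and Rbfox3 were called with TMM scaling only. In the other direction Xist was at least 168-fold lower. Cyp2d22, a cytochrome P450, was at 67.7, 38.6 and 0 CPM, at least 9.82-fold lower. Sema4c, a membrane semaphorin, had 24 UMIs in PLV and 1 in mixed members (ratio 27.2 with an exact counting interval of 4.44 to 1119). Sema4c gave -3.14 and -1.83 against PLV libraries 1 and 2 singly. Gm42418, a locus that overlaps ribosomal RNA sequence and was named after its values were seen, was at 6800, 54026 and 74737 CPM in the members and at 374725 CPM in near-empty droplets, and the 2 PLV libraries differed in it more than PLV library 2 and the mixed library did.

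The reporter of Wt1 Cre history was low in these fibroblasts. tdTomato was at 24.9 and 38.6 CPM in PLV libraries 1 and 2 and 53.5 CPM in the mixed library and did not pass (log2 difference 1.24 ± 0.52 (SE), edgeR adjusted p = 0.12). Pi16 fibroblasts were at 32.9, 62.7 and 81.1 CPM, Col4a4 fibroblasts at 34.2, 37.6 and 46.2 CPM, endothelial-gated cells at 48.7, 75.3 and 124 CPM and immune-gated cells at 6.27, 13.5 and 59.3 CPM. In the mixed library the members were thus no higher than the immune-gated cells or the near-empty droplets (59.0 CPM). Wt1 itself was at 0 in each of these groups.

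The difference between the mixed and the PLV libraries was also compared between kinds of fibroblast, to ask which genes moved unlike in the members. The interaction of kind and library was tested with edgeR on 9 sums (3 kinds in 3 libraries, library as a block). Against the Pi16 fibroblasts 12 of 7812 genes (0.154%) passed, and against the Col4a4 fibroblasts 15 (0.192%). DESeq2 called 0 genes in both comparisons, with 48 and 170 genes at an unadjusted p below 0.05.

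Against the Pi16 fibroblasts, the genes that passed included Col6a5, Col6a6, Dkk2 and Tdo2. Col6a5, a chain of microfibrillar collagen VI, was at 0, 11.0 and 24.8 CPM in the members against 448, 370.1 and 2.80 CPM in the Pi16 fibroblasts (edgeR adjusted p = 1.98e-08). Col6a6 was at 0, 0 and 43.9 CPM in the members against 227.5, 138 and 39.15 CPM (edgeR adjusted p = 4.53e-06). Both genes were highest in the Pi16 fibroblasts of the PLV libraries. Dkk2, a secreted Wnt antagonist, was at 21.4, 71.7 and 70.7 CPM against 77.7, 201 and 0 CPM (edgeR adjusted p = 5.24e-06), and Tdo2, an enzyme of tryptophan breakdown, at 17.8, 0 and 61.1 CPM against 122, 100.4 and 16.8 CPM (interaction log2 5.33 ± 0.98 (SE), edgeR adjusted p = 9.73e-05). Both were lower in the Pi16 fibroblasts of the mixed library than in those of the PLV libraries, and neither was lowest in its members. Hmcn2 was at 53.4, 93.8 and 1.91 CPM against 37.1, 339 and 97.9 CPM (interaction log2 -4.70 ± 1.18 (SE), edgeR adjusted p = 0.0439). Tmem176b, a membrane protein of immune and stromal cells, the related Tmem176a, Ifitm1 and the muscle gene Tagln passed too. Without possible doublets the edgeR adjusted p of Tmem176b, Tmem176a and Ifitm1 was 1 and Tagln was not tested, so that 8 of the 12 held.

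Against the Col4a4 fibroblasts, the genes that passed included Thbs1, Itga1, Cntfr and Fndc1. The Col4a4 set differed in its other markers between the libraries: perineurial or endoneurial markers summed to 3791, 2255 and 178 CPM in it and tendon or synovial markers to 941, 413.5 and 109.5 CPM, and their part in these differences was not tested. Thbs1, the matricellular protein thrombospondin 1, was at 7.12, 5.52 and 30.6 CPM in the members and 462, 150.4 and 21.1 CPM in the Col4a4 fibroblasts (interaction log2 6.13 ± 1.03 (SE), edgeR adjusted p = 1.84e-05). Itga1, an integrin chain that binds collagen, was at 21.4, 27.6 and 28.65 CPM against 282, 564 and 23.1 CPM (interaction log2 3.98 ± 0.90 (SE), edgeR adjusted p = 0.0187). In the mixed library Thbs1 was higher in the members than in either PLV library and Itga1 was about level, while in the Col4a4 fibroblasts both were lowest in the mixed library. Cntfr, the receptor for ciliary neurotrophic factor, was at 60.6, 88.3 and 45.8 CPM against 325, 225.5 and 8.035 CPM (interaction log2 4.15 ± 0.87 (SE), edgeR adjusted p = 0.00669), and Sulf2, which trims heparan sulphate, at 24.9, 11.0 and 38.2 CPM against 179.7, 188 and 19.1 CPM (interaction log2 3.86 ± 0.93 (SE), edgeR adjusted p = 0.0353). Fndc1, a secreted fibronectin-domain protein, went the other way, at 253, 182 and 111 CPM against 8.56, 37.6 and 189.8 CPM (interaction log2 -5.00 ± 1.06 (SE), edgeR adjusted p = 0.00689). Npr3, Cd36 and Cd200 passed as well but not without possible doublets (edgeR adjusted p = 0.0742, 1 and 0.0618), where 10 of the 15 held. In PLV library 2 these Col4a4 values rest on 5 cells.

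**Figure D5:**
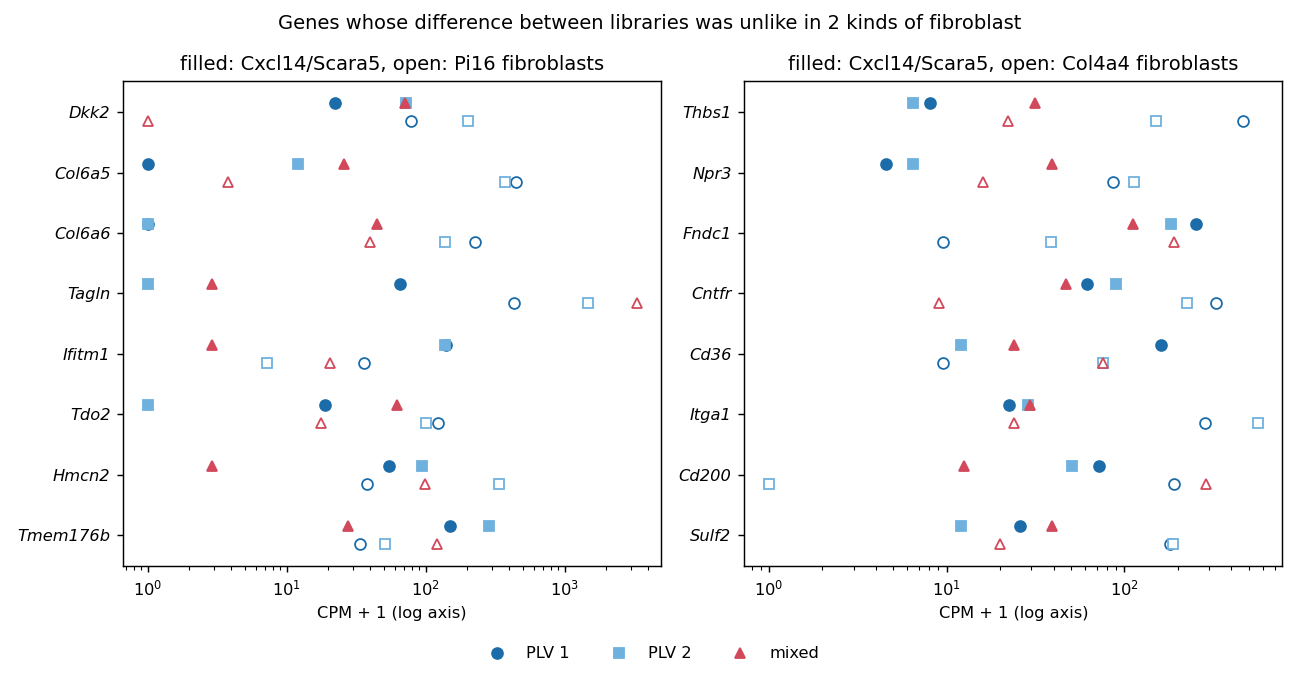
CPM plus 1 on a log axis for the 8 genes of largest difference that passed each interaction test, filled symbols for the members and open symbols for the Pi16 (left) or Col4a4 (right) fibroblasts, 1 symbol per library. Thbs1 and Itga1 drop in the Col4a4 fibroblasts of the mixed library, and Col6a5 in its Pi16 fibroblasts, whereas the member values of these genes do not drop.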

How the data were processed

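Single-cell RNA of 3 libraries (10x Next GEM 3′) was used. The deposited matrices hold UMI counts per gene and barcode, made with Cell Ranger (6.1.2 for the PLV libraries and 4 for the mixed one, per the file headers). The submitters' processing notes name Cell Ranger, Seurat and the genome build GRCm38. The authors deposited 2649 and 730 barcodes for the PLV libraries and 896360 for the mixed one, the last including near-empty droplets.

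Barcodes with at least 500 UMIs and 300 genes, at most 15% mitochondrial and 20% haemoglobin UMIs were kept. They held 9611078, 3466668 and 7814616 UMIs. Barcodes that met the gates of 2 cell types counted as possible doublets and were left out only as an alternative, and no doublet caller was run. The cell types come from marker gates rebuilt here, not from an annotation by the authors. The 2 antibody tags of the mixed library did not separate its cells (below), so that vessel was not assigned. Members' UMIs were summed per library and tested with edgeR 4.0.16 (R 4.3.3; TMM, filterByExpr, quasi-likelihood, Benjamini-Hochberg over all genes tested); DESeq2 1.42.0 was an alternative. The PLV libraries were 2 separate pools of mice. The p-values of the test between libraries use a spread shared across genes, with 1 residual degree of freedom from these 2 pools. Neither the spread of a single gene nor that between mixed pools was measured. Python 3.11.15 with scipy 1.17.1 gave exact intervals, which cover counting error only.

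Members, gene lists and tests were chosen with earlier results of these data known. Named were the genes of the rule with C3 and C4b, the 10 genes of most even difference each way against each other kind (without mitochondrial, ribosomal, haemoglobin and sex-limited genes), list genes that passed (up to 6) or were most abundant (up to 4), the 8 largest differences each way, up to 8 interaction genes, tdTomato, Wt1 and Xist. The tests were checked on simulated data with known fold changes, where the interaction tests missed nearly all genes changed 4-fold and are therefore sensitive to large differences only. Some genes that the rule names are not reported here.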

Additional observations from a re-analysis of the deposited data

Results flagged for a closer look

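For some genes the difference between the mixed and the PLV libraries was itself found to differ between the members and another kind of fibroblast, by edgeR's interaction test with Benjamini-Hochberg adjustment. Given here are the 8 of largest difference in each comparison. Against the Pi16 fibroblasts, where 12 passed, these were Dkk2 (adjusted p = 5.24e-06), Col6a5 (1.98e-08), Col6a6 (4.53e-06), Tagln (0.002), Ifitm1 (0.0413), Tdo2 (9.73e-05), Hmcn2 (0.0439) and Tmem176b (1.99e-05). Col6a5 and Col6a6 encode related collagen VI chains and had the same pattern, absent or low in the members of the PLV libraries and high in the Pi16 fibroblasts there. Tagln was high in the Pi16 fibroblasts of the mixed library, at 3311 CPM, together with the other muscle markers named above, whose part in it was not tested.

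Against the Col4a4 fibroblasts, where 15 passed, they were Thbs1 (adjusted p = 1.84e-05), Npr3 (0.0424), Fndc1 (0.00689), Cntfr (0.00669), Cd36 (0.0395), Itga1 (0.0187), Cd200 (0.0187) and Sulf2 (0.0353). Npr3, a clearance receptor for natriuretic peptides, was at 3.56, 5.52 and 38.2 CPM in the members and 85.6, 113 and 15.1 CPM in the Col4a4 fibroblasts. Cd200, a surface protein that binds an inhibitory receptor on myeloid cells, was at 71.2, 49.7 and 11.5 CPM against 188, 0 and 288 CPM. Its 0 in PLV library 2 rests on 26602 UMIs. None of these 16 was called by DESeq2.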

How the results depend on the processing

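The calls between libraries rest on 2 PLV pools and 1 mixed pool. With 1 residual degree of freedom edgeR gave every gene the same prior spread, so the spread of a single gene was not estimated. No paired analysis was possible because the mixed group has 1 library and shares only 1 replicate number with the PLV group. The settings below tested unlike numbers of genes, so their counts are not on a like footing. Between libraries these were 5179 in the main setting, 946 after thinning, 3320 with 3 markers and 13131 without a filter. DESeq2 gave an adjusted p for 648 genes. In the interaction tests they were 7812 in the main setting, 1886 after thinning and 15726 without a filter. The 514 calls between libraries became 50 with DESeq2 (41 higher, 9 lower), 92 after thinning to 1500 UMIs (55 and 37), and 229 with at least 3 of the 4 markers (155 and 74). With library totals 82 were higher and 352 lower, and without a filter on low counts 109 were lower. Of these, 50, 71 and 218 of the genes called with DESeq2, thinning and 3 markers were among the 514. The 12 interaction calls against Pi16 fibroblasts became 0 with DESeq2 (48 at an unadjusted p below 0.05) and 0 after thinning (26). The 15 against Col4a4 fibroblasts became 0 with DESeq2 (170) and after thinning (37), 6 without a filter, 7 at no more than 10% mitochondrial UMIs, and 33 with library totals.

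The share in the mixed library was 3.85% after thinning, and with at least 3 markers the PLV shares were 1.82% and 3.85%. With 5 CPM added, 74 genes were higher and 205 lower than in Pi16 fibroblasts, and 147 and 151 than in Col4a4 fibroblasts. Without possible doublets 39 were lower than in Pi16 fibroblasts. Thinning gave 20 and 44 (7 and 13 of them among the 39 and 69 genes first counted), and 120 and 16 (23 and 3 among the 57 and 50). The last 2 counts rest on 1 thinned Col4a4 cell in PLV library 2 and cannot show how many genes hold. Leaving out 1 library each gave 45 to 98 genes higher and 80 to 200 lower than Pi16, and 83 to 304 higher and 73 to 379 lower than Col4a4 fibroblasts, where the highest counts but that of 200 (without PLV library 1) came without the mixed library. A gene had to meet the bound in every library used, so leaving 1 out could not lower a count. That these counts rose was therefore fixed in advance. The log2 difference of Cd36 was 1.09 without PLV library 1 and -2.07 without PLV library 2, and that of Fabp4 1.29, -2.61 and, without possible doublets, 0.258. Of 86 named genes, 17 lost the call with library totals, 20 with 3 markers, 13 without a filter and 14 of 46 after thinning. Fgf10, Ifitm1 and Sema4c were among those that lost it with 3 markers, and Cd55 without a filter. Without possible doublets 2 lost it, Sema4c among them, besides Fabp4, whose sign turned. Of the 86 named genes DESeq2 called 27, did not call 10 and gave no adjusted p for 49. Without PLV library 1, 2 named genes turned their sign and without PLV library 2, 0; this leaves 1 library against 1 and no test. Library totals were added after the data were seen, and so was the setting of 3 markers for the gene calls. For the shares the setting of 3 markers was planned.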

Other observations

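The 61 members of the mixed library carried both antibody tags. The first tag had a median of 161 UMIs and the second 45, and the ratio of the first to the second (1 added to both) ran from 2.5 to 9.71 with a median of 4.14. Over all 997 kept barcodes the median ratio was 3.95, and the second tag exceeded the first in 0 of them. The labels pair one tag with popliteal lymphatic vessels and the other with blood vessels, but do not tie them to the names in the matrix, and no group of members with the opposite ratio was seen.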
